A study of Mus musculus with 24 samples.

Results

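Collagens are triple-helical proteins of the extracellular matrix, and the lysyl oxidases are the secreted copper-dependent enzymes that cross-link them and elastin. In the brain, fibrillar collagens (types I, II, III, V, XI, XXIV and XXVII) lie mainly in the meninges and around larger vessels, whereas type IV collagen forms the network of basement membranes under endothelium, pia and the epithelium of the choroid plexus. Other families are shorter network formers (type VIII), beaded filaments (type VI), fibril-associated collagens with interrupted helices, membrane-spanning collagens and anchoring fibrils.

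The genes described here were the symbols in the raw count files made of Col, digits, a and digits, plus Lox and Loxl1 to Loxl4, with at least 10 counts in 3 or more of 22 libraries. This minimum left 48 members (43 collagens and 5 lysyl oxidases) out of 49568 gene symbols, and only Col10a1, with at most 9 counts in a library, had the right form but too few counts. The members comprise 11 fibrillar collagens, 8 of basement membranes (types IV, XV and XVIII), 6 of type VI, 2 of type VIII, 9 fibril-associated, 4 transmembrane, 3 other collagens and the 5 lysyl oxidases. All 48 reach the minimum within the standard-housed libraries alone and within the enriched libraries alone, with both genotypes pooled. The minimum was not applied within each group of genotype and housing. Loxl4 met it in standard housing through libraries 2 (20 counts), 4 (22), 11 (10) and 12 (14). Of these, the study set aside libraries 2 and 12, in which Loxl4 was high for its group.

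Poly(A) RNA was sequenced from whole hippocampus of 12-week-old mice on the C57-Bl/6J background, either wild type (WT) or homozygous for a kinase-dead knock-in of MSK1 (MSK1 KD), each bred as a line of its own. Mice of both genotypes lived in standard housing (SH) or, from before birth, in an enriched environment (EE) of large cages with a running wheel, changing toys and additional dams. The knock-in changes an amino acid in every cell and leaves the transcript in place, so the number of reads on the MSK1 gene Rps6ka5 does not check the genotype. The study inspected the aligned reads at this gene for the mismatch that the mutation makes. Of the 24 libraries, 17 were used in the study (5 WT SH, 3 WT EE, 5 MSK1 KD SH and 4 MSK1 KD EE) and are the basis of the values below. The study set aside 5 more for poor correlation within their group (library 12 of WT SH, 31B and 35A of WT EE, 2 of MSK1 KD SH and 9 of MSK1 KD EE), and these are given beside the others because they bear on every result. Libraries 33B and 34B failed quality control and are not used. The counts on genes were 13003876 to 54292242 per library, so 3 counts, taken as the floor, equal 0.0553 to 0.231 CPM (counts per 1000000 counts on genes). Nothing in the labels states that every library is a separate animal, so p-values measure the spread between these libraries, and in bulk tissue fewer cells of a type and less RNA per cell cannot be told apart.

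Per kilobase of exon, which allows genes to be compared, the most abundant members in WT SH were Col4a2 at 11.6, Col6a1 at 8.86 and Col4a1 at 8.23 CPM per kb, followed by Col25a1, a neuronal transmembrane collagen, at 6.57. The least abundant were Col17a1 at 0.0474 and Loxl4 at 0.0607 CPM per kb. In WT EE the order had changed at the top, where Col9a3, a chain of the fibril-associated type IX, stood first at 16.9 CPM per kb against 3.87 in WT SH. All further levels are CPM without the length term and are compared between libraries only.

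The sequences immediately upstream of Col8a1, Col17a1, Col8a2 and Col4a3 are shown because these members had the largest fold changes between EE and SH in WT, and that of Col4a3 is the whole stretch separating it from its neighbour Col4a4. They are from RefSeq on GRCm38.p6, 5′ to 3′ on the strand of the gene (the forward strand for the shared stretch), with no annotated exon inside, and capitals mark matches on either strand. The letters searched were TATAAA of the basal promoter element, CCAAT for binding of NF-Y, the Sp1 site GGGCGG (the GC box) and, for the OTX homeodomain factors, TAATCC.
Col8a1, chr16:57754738-57754987, minus strand: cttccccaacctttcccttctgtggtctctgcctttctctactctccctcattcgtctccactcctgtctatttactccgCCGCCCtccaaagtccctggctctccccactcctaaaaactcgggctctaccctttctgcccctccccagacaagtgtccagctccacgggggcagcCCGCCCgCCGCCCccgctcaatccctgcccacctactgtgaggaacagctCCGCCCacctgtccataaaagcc
Col8a2, chr4:126286544-126286792, plus strand: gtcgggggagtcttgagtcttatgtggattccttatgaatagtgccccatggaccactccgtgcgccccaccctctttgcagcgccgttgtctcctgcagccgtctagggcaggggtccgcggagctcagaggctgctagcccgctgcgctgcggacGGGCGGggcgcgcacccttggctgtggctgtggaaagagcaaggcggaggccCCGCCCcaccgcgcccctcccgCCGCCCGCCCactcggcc
Col17a1, chr19:47692095-47692292, minus strand: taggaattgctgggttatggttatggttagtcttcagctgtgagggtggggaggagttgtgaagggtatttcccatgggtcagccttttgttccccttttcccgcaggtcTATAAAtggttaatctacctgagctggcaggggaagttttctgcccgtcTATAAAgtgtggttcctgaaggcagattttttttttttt
Col4a3 and Col4a4, chr1:82586850-82586920, plus strand: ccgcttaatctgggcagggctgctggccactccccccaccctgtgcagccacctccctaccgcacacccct
The windows of the type VIII pair, Col8a1 and Col8a2, each held 4 GC boxes (GGGCGG), and 2 of those of Col8a2 overlap. The window of Col17a1 held 2 TATAAA matches and no GC box, and the 71 bases between Col4a3 and Col4a4, which are transcribed away from each other, held none of the letters searched. Among 27025 genes with a window, only the 250 bases before the start were searched. GGGCGG occurred there in 35.4%, CCAAT in 37.5%, TATAAA in 14.3% and TAATCC in 7.21%. A window was found for 35 members, of which 22 held GGGCGG, 13 CCAAT, 4 TATAAA and 0 TAATCC. Of the 13 members with a window that passed the test in WT described next, 8 held GGGCGG, 4 CCAAT and 3 TATAAA. Of the 22 other members with a window, 14 held GGGCGG, 9 CCAAT and 1 TATAAA. These matches are a description of letters, not of binding.

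To ask which members differ with housing, EE was compared with SH in each genotype by edgeR's quasi-likelihood test over all 18701 genes, with a gene called at an adjusted p of at most 0.05 and a log2 fold change of at least 0.38 in size. In WT, 19 of the 48 members were called and all 19 were higher in EE, where 3.55% of all genes were called and 3.48% were called higher. In MSK1 KD, 10 members were called, again all higher in EE, against 1.74% of all genes in either direction and 1.64% higher. The median log2 fold change of the members was 0.50 in WT and 0.19 in MSK1 KD, with a median of -0.00 over all genes tested in both genotypes. The 10 called in MSK1 KD were also called in WT and are Col8a1, Col8a2, Col17a1, Col4a3, Col4a4, Col18a1, Col9a3, Col1a1, Col1a2 and Loxl4. In WT alone, Col13a1, Col3a1, Col20a1, Col4a5, Col4a6, Col6a2, Loxl1, Loxl2 and Loxl3 passed the test as well. Neither comparison called the other 29 members. DESeq2 over the same libraries called 20 members in WT, the addition being Col7a1, against 729 of the 34254 genes it tested. In MSK1 KD it called 12, the additions being Col4a5 and Lox, against 408 of those genes. Of the 9 members called by edgeR in WT only, Col3a1, Col4a5 and Loxl2 were called whichever library was left out. Without library 17 the calls of Col13a1, Col20a1, Col4a6, Col6a2, Loxl3 and Col1a1 were lost in WT, leaving 13. Col6a2 was also lost without any one of 3, 6, 7, 10, 13, 14, 15, 16 or 32A, Loxl3 without 10, 13, 14, 15, 16 or 33A, Col20a1 without 10, 14 or 16, Col4a6 without 16 and Loxl1 without 33A.

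These calls rest on the choice of libraries. With the 5 libraries set aside for poor correlation returned, edgeR called none of the members in WT or in MSK1 KD. It called 0% of all 18482 genes tested in either genotype. DESeq2 called 1 member in WT, against 23 of 35333 genes, and 0 members in MSK1 KD, against 4 of those genes. At an unadjusted p under 0.05 by edgeR were 16 members in WT, against 1598 of the 18482 genes, and 10 in MSK1 KD, against 1779. The members' medians were then 0.25 (WT) and 0.21 (MSK1 KD), and the 9 members called in WT only had log2 differences of 0.28 (Col6a2) to 0.88 (Loxl2). The returned libraries lay opposite to their groups for the members called in both genotypes. Libraries 12 and 2, both SH, lay above every other SH library of their genotype for all 10 of these genes, 31B and 35A lay below every other WT EE library for all 10, and library 9 lay below every other MSK1 KD EE library for 9, with Col17a1 the exception. Such counts were not made over all genes, so neither those nor the following are read as particular to the members. Of the other 38 members, library 12 was above the other libraries of its group for 26 and below for 3. Library 2 was above for 9 and below for 3, 31B above for 2 and below for 15, and 35A above for 2 and below for 19. Among the EE libraries set aside, library 9 alone was more often above (14) than below (9). Libraries with a letter in their name occur only in EE. Among the 17 libraries, leaving them out kept only 16 and 17 in WT EE and 7 and 8 in MSK1 KD EE. WT then had 22 calls and MSK1 KD had 3 (Col8a1, Col8a2 and Col9a3). The share of all genes called in that fit is not given here, so the 2 counts are not compared.

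**Figure D1:**
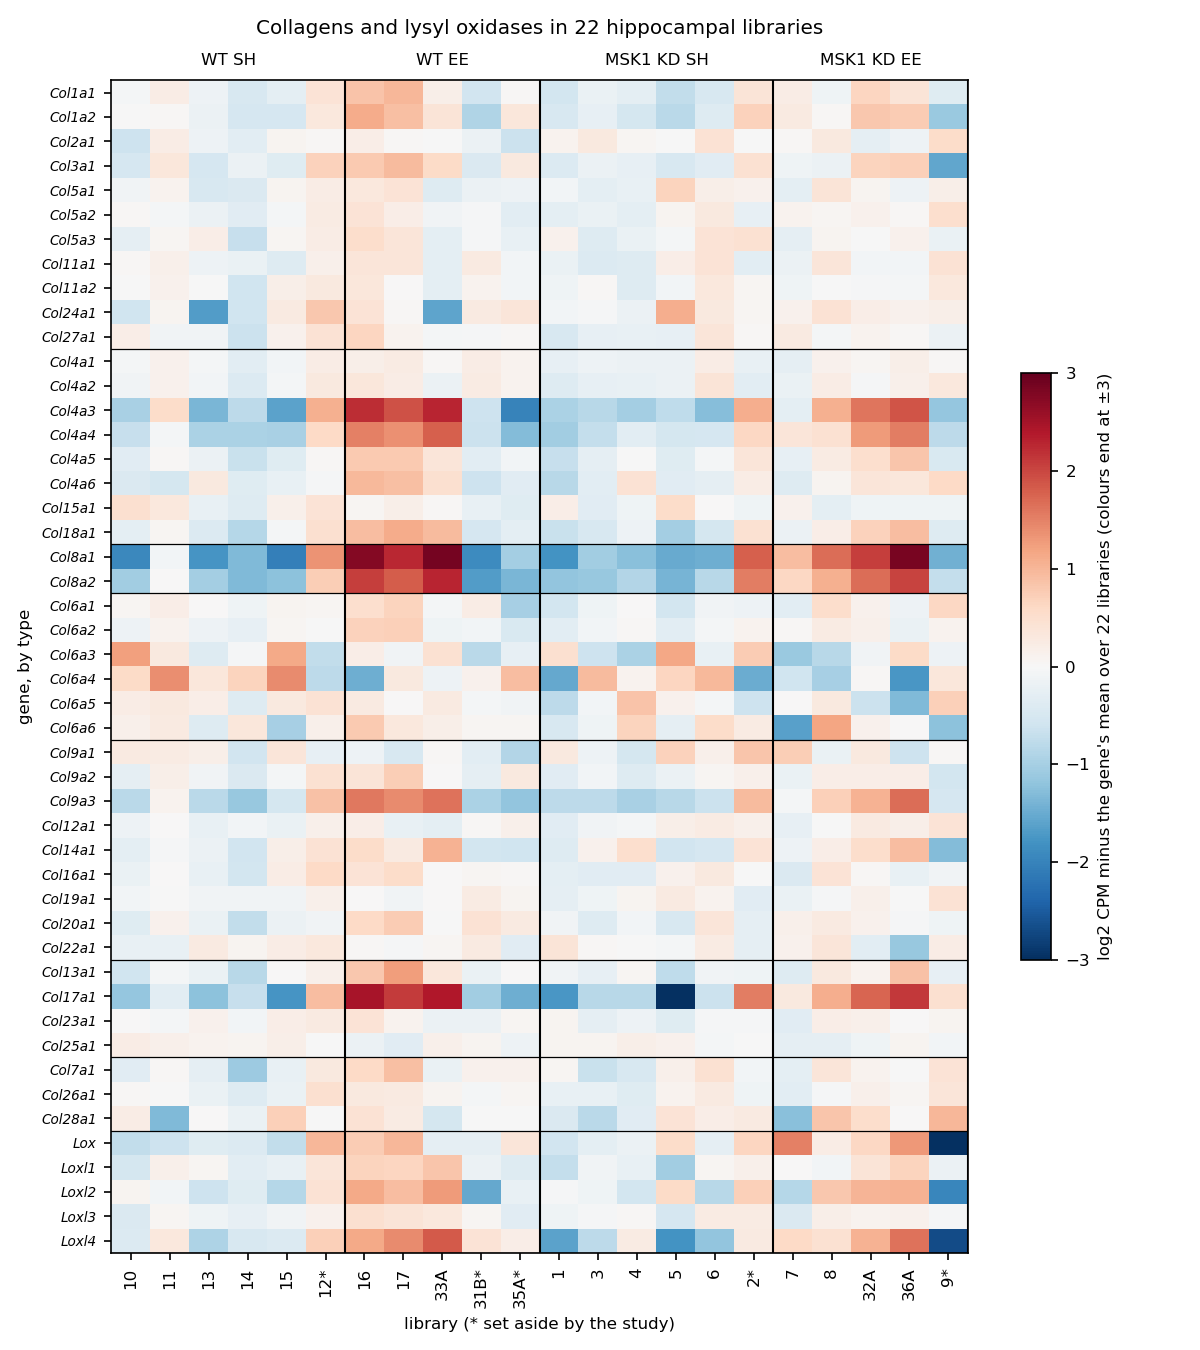
Level of the 48 members (vertical axis, by type) in 22 libraries (horizontal axis, by group, with an asterisk on those the study set aside), as log2 CPM minus the gene's mean over the 22 libraries. The type VIII chains, Col17a1, Col4a3, Col4a4 and Col9a3 are high in the EE libraries in use and low in the SH libraries in use, and libraries 12, 2, 31B, 35A and 9 show the opposite colours for most of these genes.

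Col8a1 had the largest fold change of any member in each genotype. Col8a1 and Col8a2 encode the chains of type VIII collagen, known from Descemet's membrane of the cornea and from vascular subendothelium. Col8a1 (GRCm38 chr16:57624258-57754737) was at 0.983, 3.76, 1.11, 1.54 and 0.913 CPM in WT SH libraries 10, 11, 13, 14 and 15 and at 27.1, 19.2 and 29.1 CPM in WT EE libraries 16, 17 and 33A. In MSK1 KD it was at 1.11, 1.88, 1.63, 1.35 and 1.39 CPM in SH libraries 1, 3, 4, 5 and 6 and at 7.58, 12.7, 16.8 and 28.8 CPM in EE libraries 7, 8, 32A and 36A. Every EE library was above every SH library of its genotype, and the 4 MSK1 KD EE libraries were spread over a wider range than the 3 of WT EE. Col8a1 rose 15.9-fold in WT (log2 fold change 3.99 ± 0.35, SE; edgeR adjusted p = 2.89e-07) and 11.1-fold in MSK1 KD (3.48 ± 0.33; adjusted p = 2.61e-06). The libraries set aside were at 10.2 (12) and 13.8 (2) CPM in SH and at 1.03 (31B), 1.93 (35A) and 1.42 (9) CPM in EE, so with them the groups overlapped and the log2 fold changes were 2.40 ± 0.81 in WT (adjusted p = 0.411) and 1.94 ± 0.79 in MSK1 KD (adjusted p = 0.48).

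Col8a2 (chr4:126286793-126314330) was at 3.19, 6.70, 3.29, 2.61 and 2.81 CPM in WT SH and at 28.2, 23.5 and 32.9 CPM in WT EE, in the same order of libraries. The MSK1 KD libraries were at 2.90, 3.00, 3.59, 2.49 and 3.74 CPM in SH and at 10.3, 14, 21.5 and 27.5 CPM in EE. Library 11 was the highest SH library and library 7 the lowest EE library, as for Col8a1, and neither genotype's groups overlapped. Col8a2 rose 7.74-fold in WT (log2 2.95 ± 0.26; edgeR adjusted p = 2.89e-07) and 5.85-fold in MSK1 KD (2.55 ± 0.25; adjusted p = 2.61e-06). Over 22 libraries the log2 fold changes were 1.87 ± 0.64 (adjusted p = 0.412) and 1.42 ± 0.63 (adjusted p = 0.491), with libraries 12 and 2 at 11.1 and 19.4 CPM and 31B, 35A and 9 at 2.06, 2.53 and 4.05 CPM.

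Type IV collagen is built from 6 chains: Col4a1 and Col4a2 make the form found in nearly all basement membranes, and Col4a3 to Col4a6 make specialized networks best known in kidney and eye. The genes lie in head-to-head pairs, with Col4a1 and Col4a2 overlapping by 22 bases on chromosome 8, Col4a3 and Col4a4 71 bases apart on chromosome 1 and Col4a5 and Col4a6 1308 bases apart on the X chromosome. The 2 abundant chains did not pass the test. Col4a1 averaged 61.4 ± 6.85 CPM (SD, n = 5) in WT SH and 71.7 ± 5.33 (n = 3) in WT EE, a log2 difference of 0.22 ± 0.11 (edgeR adjusted p = 0.371). Col4a2 averaged 76.9 ± 9.92 and 90.7 ± 16.2 CPM in the same groups, a log2 difference of 0.23 ± 0.14 (adjusted p = 0.514). In MSK1 KD their log2 differences were 0.14 and 0.16 (adjusted p = 0.653 and 0.7).

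Col4a3 (chr1:82586921-82722059) was at 0.508, 1.56, 0.371, 0.579 and 0.304 CPM in WT SH and at 5.06, 4.10 and 5.31 CPM in WT EE. In MSK1 KD it was at 0.518, 0.558, 0.486, 0.594 and 0.396 CPM in SH and at 0.842, 2.27, 3.30 and 4.03 CPM in EE. The groups stayed apart in both genotypes, by the smallest margin between library 7 and the MSK1 KD SH libraries. Col4a3 rose 7.67-fold in WT (log2 2.94 ± 0.36; edgeR adjusted p = 1.22e-05) and 5.40-fold in MSK1 KD (2.43 ± 0.36; adjusted p = 0.000222). Its partner Col4a4 (chr1:82448423-82586849) was at 1.29, 2.03, 1.06, 1.06 and 1.05 CPM in WT SH, and at 6.18, 5.54 and 7.52 CPM in WT EE. The corresponding MSK1 KD values were 1.0, 1.27, 1.68, 1.46 and 1.47 CPM in SH and 2.76, 2.95, 5.2 and 6.27 CPM in EE. Again no EE library fell among the SH libraries, and Col4a4 rose 5.04-fold in WT (2.33 ± 0.25; adjusted p = 1.96e-06) and 3.18-fold in MSK1 KD (1.67 ± 0.23; adjusted p = 0.000111). Over 22 libraries the log2 values were 1.77 ± 0.65 and 1.5 ± 0.66 for Col4a3 (adjusted p = 0.434 and 0.491) and 1.42 ± 0.46 and 1.18 ± 0.46 for Col4a4 (adjusted p = 0.401 and 0.478). Of the exonic bases of Col4a3, 5.65% overlap the antisense gene C430014B12Rik, and counting was not stranded, so reads there cannot be assigned to either.

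By edgeR, the X-linked pair was called in WT only, whereas DESeq2 called Col4a5 in MSK1 KD too. Col4a5 rose from 5.08 ± 0.919 to 9.80 ± 1.59 CPM (libraries at 3.86 to 6.35 against 7.96 to 10.7; log2 0.94 ± 0.19; edgeR adjusted p = 0.00296) and Col4a6 from 1.46 ± 0.374 to 3.03 ± 0.554 CPM (1.17 to 2.10 against 2.40 to 3.44; log2 1.02 ± 0.24; adjusted p = 0.015). In MSK1 KD, Col4a5 had a log2 difference of 0.67 ± 0.18 (adjusted p = 0.0539) and Col4a6 one of 0.36 (adjusted p = 0.607), and edgeR called Col4a5 there when 4, 6, 7, 11, 14 or 33A was left out. The α3 to α6 chains together made up 4.88 to 5.88% of the summed CPM per kb of all type IV chains in WT SH and 10.7 to 12.1% in WT EE. In MSK1 KD the same share was 4.51 to 7.17% in SH and 6.67 to 11% in EE, so that the ranges overlapped in MSK1 KD and not in WT. The set-aside libraries stood at 6.28% (12) and 10.2% (2) in SH and at 4.08% (31B), 4.79% (35A) and 4.54% (9) in EE.

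Of the other basement membrane collagens, Col18a1 (chr10:77052178-77166548), whose C-terminal fragment is endostatin, was at 5.63, 7.13, 5.19, 3.76 and 6.66 CPM in WT SH and at 13.2, 14.9 and 13.4 CPM in WT EE. It was at 4.32, 4.91, 6.24, 3.35 and 4.75 CPM in MSK1 KD SH and at 6.13, 7.91, 11.2 and 13.2 CPM in MSK1 KD EE. The WT groups did not overlap, whereas library 7 lay just under library 4 in MSK1 KD. Col18a1 rose 2.44-fold in WT (log2 1.29 ± 0.20; edgeR adjusted p = 0.00024) and 2.04-fold in MSK1 KD (1.03 ± 0.19; adjusted p = 0.00303), and over 22 libraries the log2 values were 0.72 ± 0.29 and 0.70 ± 0.30 (adjusted p = 0.474 and 0.491). Col15a1, which is close to Col18a1 in structure, was not called, with log2 differences of -0.00 (WT) and -0.17 (MSK1 KD). In all, 5 of the 8 basement membrane collagens passed in WT but 3 in MSK1 KD, with median log2 fold changes of 0.98 and 0.52.

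**Figure D2:**
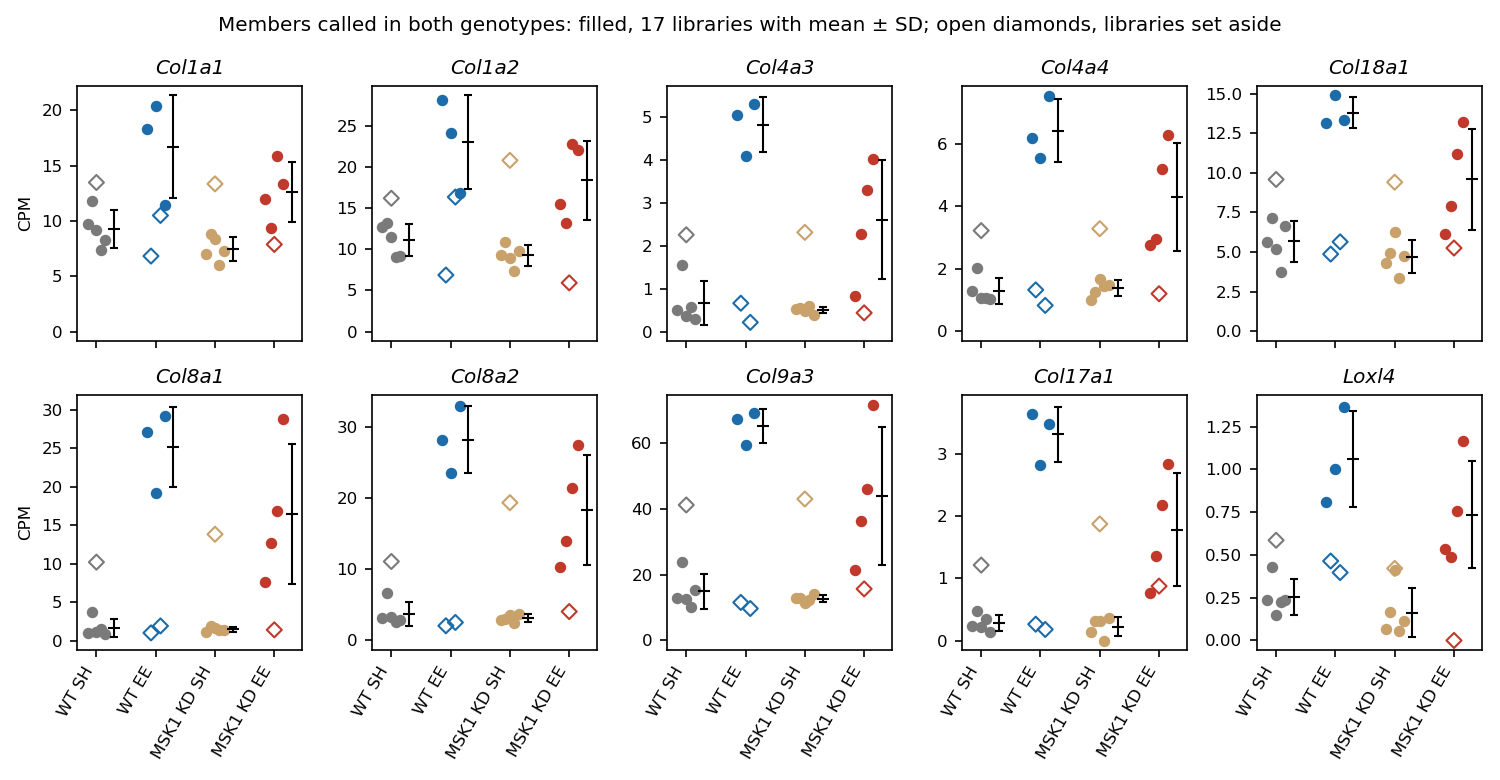
Level in CPM (vertical axis, from 0) of the 10 members called in both genotypes by group (horizontal axis), with filled points for the 17 libraries, bars for their mean ± SD and open diamonds for the 5 libraries set aside. For Col8a1 the filled WT points run from 0.913 to 3.76 in SH and from 19.2 to 29.1 in EE, and the open diamonds lie at 10.2 in SH and at 1.03 and 1.93 in EE.

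Col9a3 was the only type IX chain called in each genotype; type IX collagen sits on the surface of type II fibrils in cartilage. Col9a3 (chr2:180597790-180622189) was at 12.7, 23.8, 12.7, 10.01 and 15.4 CPM in WT SH and at 67.2, 59.5 and 69.1 CPM in WT EE. The MSK1 KD levels were 12.8, 12.9, 11.3, 12.4 and 14.2 CPM in SH and 21.5, 36.3, 46.0 and 71.5 CPM in EE. No groups overlapped within a genotype, and the gene rose 4.40-fold in WT (log2 2.14 ± 0.24; edgeR adjusted p = 4.97e-06) and 3.50-fold in MSK1 KD (1.81 ± 0.23; adjusted p = 3.87e-05). Libraries 12 and 2 were at 41.2 and 43.0 CPM, and the log2 fold changes over 22 libraries were 1.18 ± 0.49 and 1.13 ± 0.49 (adjusted p = 0.476 and 0.491). The antisense gene Tcfl5 overlaps 6.07% of its exonic bases. Among the 9 fibril-associated collagens the only other call was Col20a1 in WT, from 8.41 ± 1.79 to 14 ± 3.76 CPM (5.92 to 10.8 against 9.83 to 17.1, overlapping; log2 0.73 ± 0.18; adjusted p = 0.023), with a log2 difference of 0.24 in MSK1 KD (adjusted p = 0.647). Among the members called in WT, only Col20a1 had both 31B and 35A, at 13.4 and 12.0 CPM, among the values of the other WT EE libraries. Several members that were not called, such as Col12a1 and Col16a1, shared this. The edgeR adjusted p of Col20a1 over 22 libraries, 0.219 (log2 0.65 ± 0.15), was the lowest of any member in WT.

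Of the transmembrane collagens, Col17a1 (chr19:47646344-47692094), the hemidesmosome component of skin epithelium, was close to the floor in SH, at 0.237, 0.475, 0.222, 0.354 and 0.135 CPM in WT and 0.138, 0.316, 0.318, 0 and 0.368 CPM in MSK1 KD. In EE it was at 3.65, 2.81 and 3.48 CPM in WT and at 0.766, 1.36, 2.18 and 2.83 CPM in MSK1 KD. Its raw counts ran from 0 in library 5 to 158 in library 33A, so the SH levels are imprecise, but none of the EE libraries among the 17 reached down to them. Of the libraries set aside, 31B at 0.265 and 35A at 0.180 CPM lay within the WT SH range, 9 was at 0.876 CPM, and the SH libraries 12 and 2 were at 1.21 and 1.87 CPM. Col17a1 rose 11.9-fold in WT (log2 3.57 ± 0.39; edgeR adjusted p = 2.73e-06) and 7.13-fold in MSK1 KD (2.83 ± 0.38; adjusted p = 6.07e-05), and the values over 22 libraries were 2.29 ± 0.73 and 1.64 ± 0.70 (adjusted p = 0.401 and 0.491). Col13a1, a collagen of the neuromuscular junction, rose in WT from 1.05 ± 0.264 to 2.41 ± 0.772 CPM (0.708 to 1.32 against 1.68 to 3.21; log2 1.17 ± 0.27; adjusted p = 0.00977) and had a log2 difference of 0.54 ± 0.25 in MSK1 KD (adjusted p = 0.414).

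Of the 11 fibrillar collagens, WT had 3 calls and MSK1 KD 2, with median log2 fold changes of 0.30 and 0.09. The 2 chains of type I, the main collagen of connective tissue, were called in both genotypes. Col1a2 (chr6:4504814-4541544) was at 12.7, 13.2, 11.5, 9.11 and 9.16 CPM in WT SH and at 28.1, 24.1 and 16.9 CPM in WT EE, and at 9.29, 10.9, 8.95, 7.35 and 9.79 CPM in MSK1 KD SH and 15.5, 13.2, 22.8 and 22.1 CPM in MSK1 KD EE. Col1a1 (chr11:94936224-94953042) was at 9.69, 11.8, 9.19, 7.34 and 8.25 CPM in WT SH and at 18.3, 20.4 and 11.4 CPM in WT EE, and at 6.98, 8.80, 8.33, 6.05 and 7.24 CPM in MSK1 KD SH and 11.9, 9.33, 15.9 and 13.3 CPM in MSK1 KD EE. The groups did not overlap except for Col1a1 in WT, where library 33A fell just under library 11. Col1a2 rose 2.06-fold in WT (log2 1.04 ± 0.18; edgeR adjusted p = 0.000535) and 1.99-fold in MSK1 KD (1.0 ± 0.17; adjusted p = 0.00104), and Col1a1 rose 1.80-fold in WT (0.84 ± 0.18; adjusted p = 0.00509) and 1.68-fold in MSK1 KD (0.75 ± 0.17; adjusted p = 0.0181). The Col1a1 call in MSK1 KD was lost without library 1, 32A or 36A, and that in WT without library 17. Over 22 libraries Col1a2 had log2 fold changes of 0.62 ± 0.30 and 0.54 ± 0.30 (adjusted p = 0.568 and 0.567) and Col1a1 of 0.43 ± 0.23 and 0.48 ± 0.24 (adjusted p = 0.636 and 0.527).

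Col3a1, the type III chain that accompanies type I in vessel walls, rose in WT from 2.31 ± 0.645 to 4.63 ± 0.619 CPM (1.86 to 3.41 against 3.99 to 5.22; log2 1.01 ± 0.21; edgeR adjusted p = 0.00467), with a log2 difference of 0.69 ± 0.20 in MSK1 KD (adjusted p = 0.103). The other 8 fibrillar collagens had log2 differences of 0.08 to 0.33 in WT and -0.20 to 0.22 in MSK1 KD, and their lowest adjusted p was 0.325. Of the 6 type VI collagens, which form beaded filaments around cells, Col6a2 alone was called, in WT (0.54 ± 0.15; adjusted p = 0.0416), although library 33A at 12.4 CPM lay within the SH range of 11.4 to 14.4 CPM. Col6a4 had negative log2 differences of -1.24 ± 0.44 in WT (adjusted p = 0.154) and -1.17 ± 0.42 in MSK1 KD (adjusted p = 0.243). None of the 3 remaining collagens passed edgeR's test, the closest being Col7a1 of anchoring fibrils in WT (0.83 ± 0.26; adjusted p = 0.0799), which DESeq2 called.

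Among the cross-linking enzymes, WT had 4 calls among 5 and MSK1 KD 1. Loxl4 (chr19:42593982-42612813) had the fewest counts of the 5 over all libraries, with at most 62 in a library. It was at 0.237, 0.432, 0.148, 0.225 and 0.237 CPM in WT SH and 0.810, 1.0 and 1.37 CPM in WT EE, and at 0.0691, 0.168, 0.411, 0.0540 and 0.113 CPM in MSK1 KD SH and 0.536, 0.486, 0.756 and 1.17 CPM in MSK1 KD EE. The groups did not overlap. However, MSK1 KD SH libraries 1 and 5, with 2 counts and 1 count, lay below the floor of 3 counts, and other SH values were near it. Loxl4 rose 4.32-fold in WT (log2 2.11 ± 0.43; edgeR adjusted p = 0.00335) and 3.96-fold in MSK1 KD (1.98 ± 0.43; adjusted p = 0.0112; not called without library 36A), and the values over 22 libraries were 1.43 ± 0.48 and 1.51 ± 0.50 (adjusted p = 0.411 and 0.457).

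Loxl1, which is needed for elastic fibers, rose in WT from 4.00 ± 0.768 to 7.34 ± 0.538 CPM (3.05 to 4.92 against 6.95 to 7.96; log2 0.88 ± 0.20; edgeR adjusted p = 0.0103). Loxl2, which acts on type IV collagen, rose in WT from 0.466 ± 0.138 to 1.38 ± 0.169 CPM (0.304 to 0.644 against 1.21 to 1.54; log2 1.58 ± 0.34; adjusted p = 0.0058). Loxl3 rose from 4.91 ± 0.630 to 7.25 ± 0.404 CPM (4.03 to 5.75 against 6.85 to 7.66; log2 0.56 ± 0.15; adjusted p = 0.0323). In MSK1 KD their log2 differences were 0.62 (adjusted p = 0.138), 1.02 ± 0.32 (adjusted p = 0.146) and 0.09 (adjusted p = 0.866). Of the exonic bases of Loxl3, 11.6% overlap the antisense gene Htra2, and for Loxl2 the overlap with Gm27177 is 5.70%. Lox itself averaged 0.314 ± 0.0465 CPM in WT SH and 0.773 ± 0.336 in WT EE (1.22 ± 0.38; adjusted p = 0.0822), and 0.457 ± 0.173 and 1.05 ± 0.440 CPM in MSK1 KD (1.21 ± 0.33; adjusted p = 0.0731), past the fold threshold but not edgeR's adjusted p in either genotype. In MSK1 KD, DESeq2 called Lox, and so did edgeR without library 5, 8 or 33A.

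Every EE library lay above every SH library for 19 members in WT and 9 in MSK1 KD, against 8.18% and 1.94% of all genes. In the other direction, every EE library lay below every SH library for 1 member in WT, Col6a4, against 788 of 18701 genes. In MSK1 KD that held for 0 members, against 208 of those genes. Averaging the effect of EE over the genotypes called 21 members, 20 higher and 1 lower, where 3.85% of all genes were called and 3.74% called higher. This contrast added Col14a1 (log2 0.71 ± 0.18; edgeR adjusted p = 0.0198), Col9a2 (0.42 ± 0.11; adjusted p = 0.0246), Lox (1.22 ± 0.25; adjusted p = 0.00326) and, as the one lower member, Col6a4. It left out Col6a2 (0.38 ± 0.10, just under the fold threshold) and Loxl3 (0.32 ± 0.10; adjusted p = 0.0721), which had been called in WT. The call of Col9a2 was lost without any one of 4, 8, 10, 16, 17, 32A or 36A, that of Col14a1 without 33A or 36A, and that of Col6a4 without 16. Col6a4 fell by 1.20 ± 0.31 on the log2 scale (adjusted p = 0.0178), from averages of 7.27 ± 2.54 and 5.17 ± 2.59 CPM in WT and MSK1 KD SH to 3.08 ± 1.65 and 2.30 ± 1.17 CPM in EE. In the libraries set aside, Col6a4 was at 2.13 (12) and 1.28 (2) CPM in SH and at 4.08 (31B), 7.11 (35A) and 4.71 (9) CPM in EE. Col25a1 reached an edgeR adjusted p of 0.0298 with a log2 difference of -0.23 ± 0.06, under the fold threshold. Over 22 libraries the averaged contrast by edgeR called no member and 0.146% of all genes, the lowest adjusted p of a member being 0.0559 for Loxl4 (1.47 ± 0.35). At an unadjusted p under 0.05 by edgeR were 23 members, against 2983 of 18482 genes. DESeq2 called 8 members there, against 214 of 35333 genes.

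**Figure D3:**
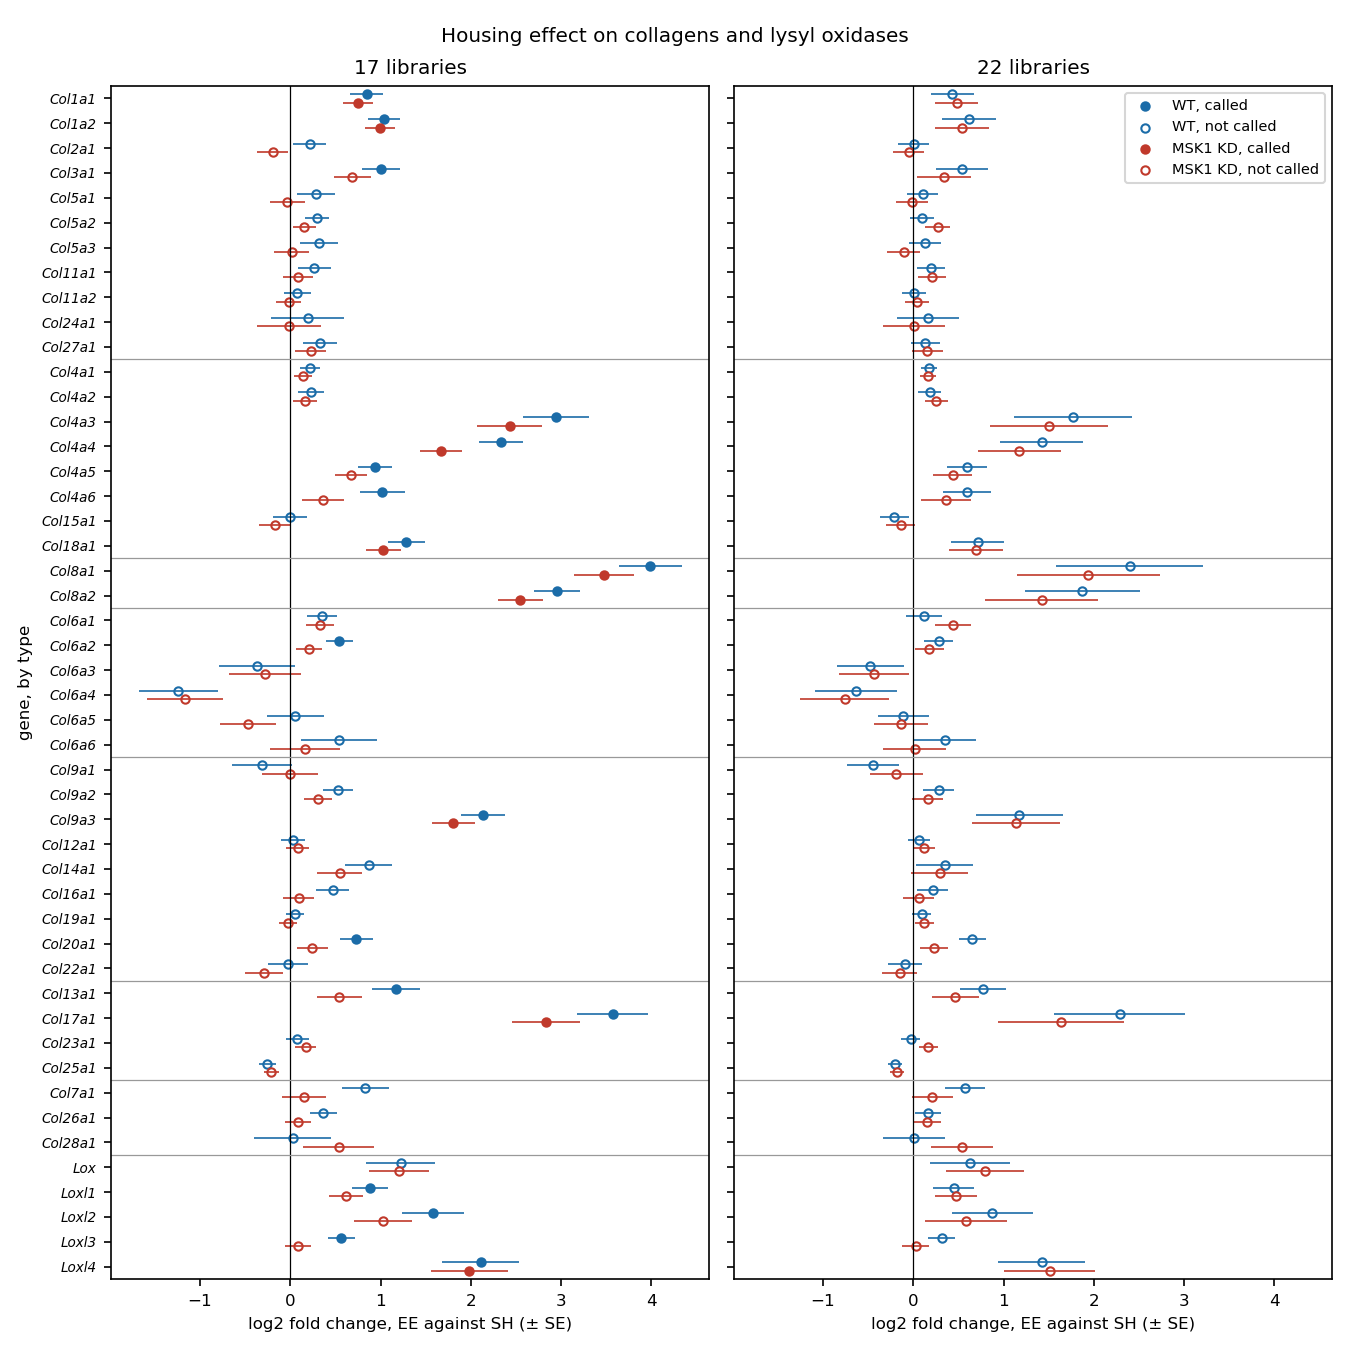
Log2 fold change of EE against SH (horizontal axis, ± SE) for the 48 members (vertical axis, by type) over 17 libraries (left) and 22 libraries (right), WT in blue and MSK1 KD in red, filled where called. The left panel has 19 filled points in WT and 10 in MSK1 KD, the largest for Col8a1 at 3.99 and 3.48, and the right panel has 0.

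The design also asks whether MSK1 genotype changes these genes and whether it changes their response to housing. Between WT and MSK1 KD in SH, edgeR called no member and 0% of all genes, and DESeq2 called no member. At an unadjusted p under 0.05 by edgeR were 0 members, against 926 of 18701 genes. The lowest p was that of Col2a1, at 1.76, 3.24, 2.47, 2.22 and 2.94 CPM in WT and 2.97, 3.39, 2.86, 2.76 and 3.74 CPM in MSK1 KD (log2 WT over MSK1 KD -0.32 ± 0.16; adjusted p = 0.881), with overlapping groups. In EE no member was called by edgeR, against 0.00535% of all genes, or by DESeq2. Col6a2 came closest (0.39 ± 0.16, edgeR adjusted p = 0.71). At an unadjusted p under 0.05 by edgeR were 9 members, against 1196 of 18701 genes. Those 9 members, all higher in WT by log2 differences of 0.36 (Loxl3) to 0.83 (Col17a1), were Col17a1, Col18a1, Col4a3, Col4a4, Col4a6, Col6a2, Col8a2, Col9a3 and Loxl3. The members' median log2 difference in EE was 0.29, against 0.00 over all genes. The interaction, which tests whether the effect of EE differs between the genotypes, called no member and 0% of all genes by edgeR. DESeq2 called no member either. By edgeR, 1 member was at an unadjusted p under 0.05, against 1031 of 18701 genes. The lowest p was that of Loxl3, whose log2 effect of EE was 0.48 ± 0.21 larger in WT (adjusted p = 0.875). The median of this difference was 0.26 over the members and 0.01 over all genes. For Col8a1, Col4a4 and Col4a6 the differences were 0.51 ± 0.50, 0.67 ± 0.35 and 0.66 ± 0.34, each with an adjusted p of at least 0.875. Thus the 9 members called in WT and not in MSK1 KD were not shown to respond differently in the genotypes. Over 22 libraries, edgeR called no member and 0% of all genes in any of these 3 comparisons. At an unadjusted p under 0.05 were 1, 1 and 0 members, against 1065, 482 and 377 of 18482 genes.

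Markers of some other cells differed between the housings as well. The choroid plexus is the secretory epithelium of the ventricles, next to the hippocampus. Of 15 choroid plexus markers, 15 were called higher in EE in each genotype over the 17 libraries and 0 over 22. Their summed level was 248 to 1345 CPM in WT SH, 5983 to 8047 in WT EE, 229 to 446 in MSK1 KD SH and 1666 to 8364 in MSK1 KD EE, and no marker was at 0. Their score, the mean log2 CPM, was 0.61 to 3.61 in the 10 SH libraries and 3.80 to 6.25 in the 7 EE libraries. Library 11 had the highest of the SH scores, and the set-aside libraries scored 4.68 (12) and 5.32 (2) in SH and 0.71 (31B), 0.89 (35A) and 1.96 (9) in EE. Of 10 meningeal fibroblast markers, 6 passed the test in WT but 0 in MSK1 KD, with sums of 93.3 to 117 CPM in WT SH, 119 to 182 in WT EE, 69.0 to 120 in MSK1 KD SH and 99.7 to 150 in MSK1 KD EE. Of 9 endothelial markers, 0 were called in either genotype, and of 7 mural cell markers 1 passed in WT but 0 in MSK1 KD. Ependymal markers were called higher for 4 of 7 in WT, and in MSK1 KD 2 were higher and 1 lower; of 5 hemoglobin and other blood markers, WT had 4 calls and MSK1 KD 0. Of 9 markers of hippocampal neurons, 1 was called, lower, in WT, and none was called in MSK1 KD, with sums of 4471 to 5941 CPM over the 17 libraries. Of the thalamic and oligodendrocyte lists 1 marker each was called in WT, and of the striatal list 1 in each genotype. Library 12, one of those returned in every result over 22 libraries, had a thalamic sum of 307 CPM against 49.9 to 104 CPM elsewhere, and library 14 of WT SH had the highest striatal sum, 304 CPM. The part of these cells in the members' differences between housings was not tested as a cause.

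**Figure D4:**
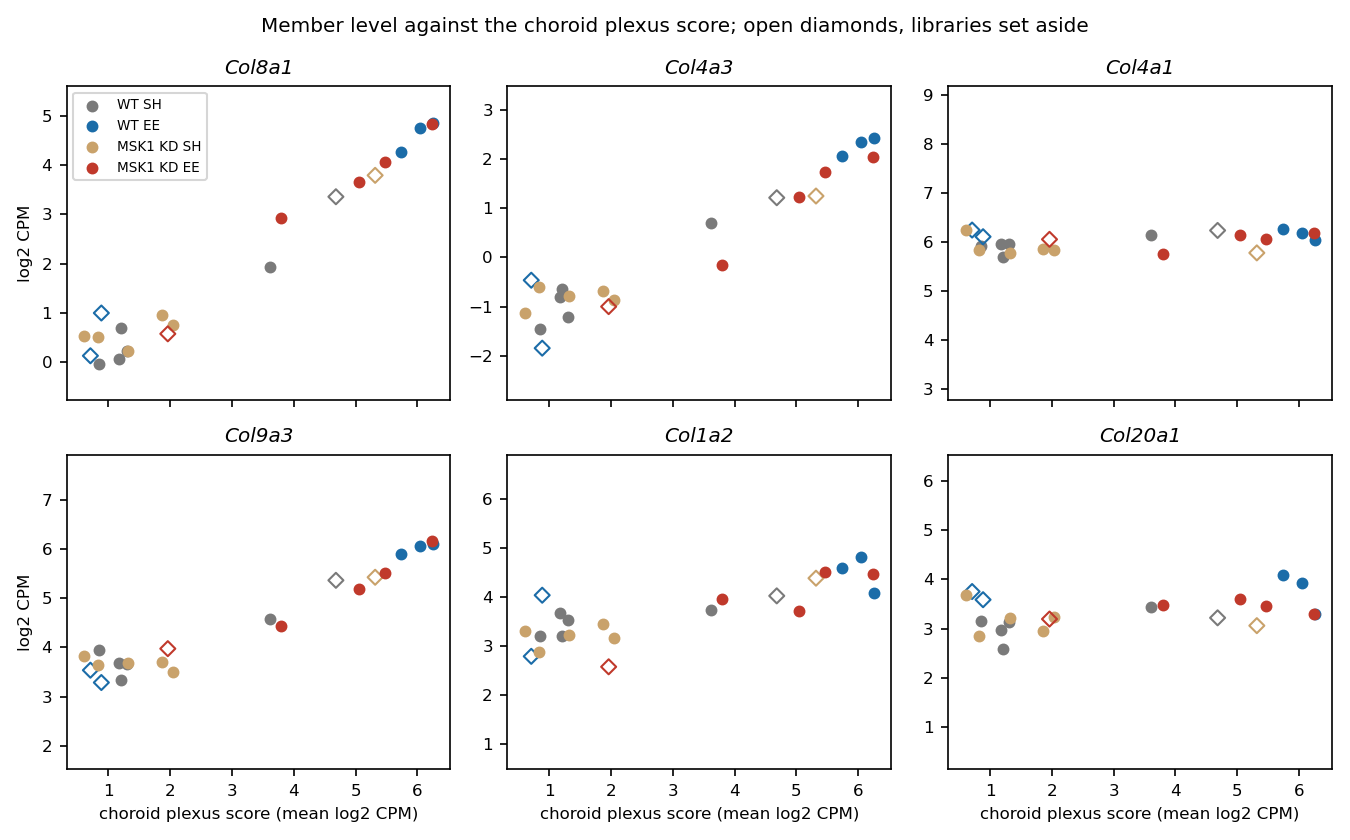
Level in log2 CPM (vertical axes, each spanning the same number of log2 units) against the choroid plexus score in log2 CPM (horizontal axis) for 6 members in 22 libraries, coloured by group, with open diamonds for the libraries set aside. Col8a1, Col4a3 and Col9a3 rise along the score in filled and open points alike, whereas Col4a1 and Col20a1 stay level.

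To describe which members follow those scores among libraries of one group, each gene was fitted over the 22 libraries with 4 group means and both scores. The slope on the choroid plexus score, in log2 per log2 unit of score, was called for 15 members, all positive, against 2.72% of all genes. It was 0.78 ± 0.04 for Col8a1 (edgeR adjusted p = 1.29e-14), 0.70 ± 0.06 for Col4a3 (9.48e-10), 0.68 ± 0.07 for Col17a1 (3.34e-07) and 0.61 ± 0.04 for Col8a2 (1.35e-12). Col9a3 at 0.48 ± 0.04 and Col4a4 at 0.46 ± 0.05 came next, followed by Loxl4 at 0.37 ± 0.08, Loxl2 at 0.31 ± 0.07, Col14a1 at 0.26 ± 0.05 and Col18a1 at 0.24 ± 0.03. Loxl1, Col3a1, Col4a5, Col1a2 and Col1a1 had slopes of 0.18, 0.15, 0.14, 0.10 and 0.09. The 33 members without a called slope had values of -0.23 to 0.12, Col4a1 being at 0.03 ± 0.02 and Col20a1 at -0.00 ± 0.04. All 10 members called in both genotypes had a called choroid plexus slope, as did 4 of the 9 called in WT only and 1 of the 29 called in neither. Over the 17 libraries alone, from which those housing calls come, the slope was called for 4 members, Col4a3, Col8a1, Col8a2 and Col9a3. The share of all genes called in that smaller fit is not given here. The slope on the meningeal fibroblast score was called for 2 members, the type I chains Col1a2 (0.97 ± 0.13; adjusted p = 0.000186) and Col1a1 (0.65 ± 0.12; adjusted p = 0.00871), against 0.227% of all genes. The 2 scores correlated with each other across the 22 libraries (r = 0.70, a description only), so each slope is conditional on the other score. These libraries include those of the housing comparisons, and with the choroid plexus score as a covariate of the 17-library fit no member was called in any housing comparison. Among those 17 libraries every EE score lay above every SH score, so that fit cannot separate the score from housing.

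**Figure D5:**
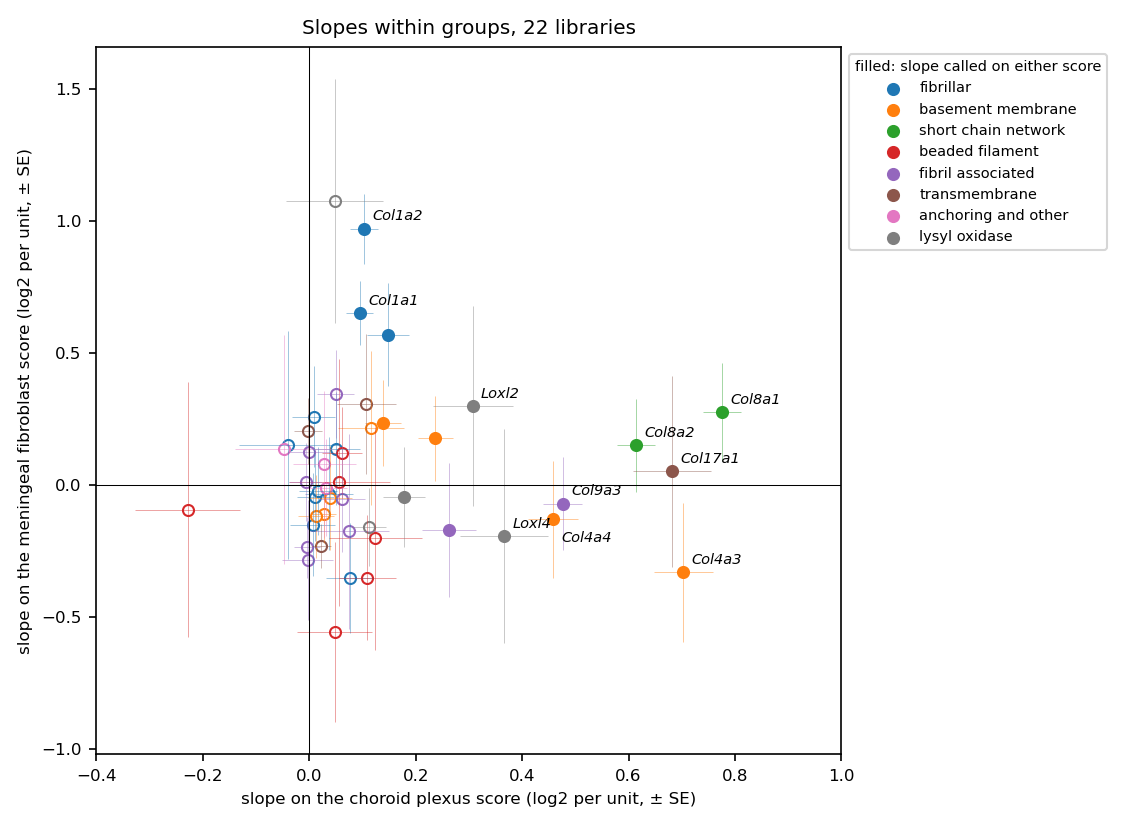
Slope on the choroid plexus score (horizontal axis) and on the meningeal fibroblast score (vertical axis), both in log2 per unit of score with SE, for the 48 members over 22 libraries, coloured by type and filled where either slope was called. Col8a1 lies farthest right at 0.78, and Col1a2 and Col1a1 are the only filled points called on the vertical axis, at 0.97 and 0.65.

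Genes that make, process and bind collagens were described from fixed lists. Of 19 genes of collagen modification and folding, 1 was called in each genotype, Crtap, a prolyl 3-hydroxylase partner, in WT (log2 0.68 ± 0.11; edgeR adjusted p = 0.000478) and Serpinh1, the collagen chaperone HSP47, in MSK1 KD (0.72 ± 0.17; adjusted p = 0.0192). Of 8 procollagen processing genes, 2 were called in both, the C-proteinase enhancers Pcolce (2.24 ± 0.22 in WT, adjusted p = 9.71e-07; 1.95 ± 0.21 in MSK1 KD, adjusted p = 5.71e-06) and Pcolce2 (1.56 ± 0.20 and 0.94 ± 0.19). Of 10 tested genes of collagen degradation and its inhibition, WT had 3 calls and MSK1 KD 1, the gelatinase Mmp2 in both (0.83 ± 0.16 and 0.66 ± 0.15) and the membrane-type protease Mmp15 and the inhibitor Timp3 in WT (0.42 each, adjusted p = 0.024 and 0.0275). Of 9 tested receptors, WT had 2 calls and MSK1 KD 1, with the endocytic receptor Mrc2 in both (0.83 ± 0.16 and 0.77 ± 0.15) and the integrin chain Itga10 in WT (0.73, adjusted p = 0.0163). Of 16 partners in basement membranes, WT had 3 calls and MSK1 KD 4. Nid2, a linker of laminin and type IV collagen (1.65 ± 0.18 and 1.28 ± 0.17), Lama5, a laminin chain (1.05 ± 0.16 and 0.87 ± 0.15), and Hspg2, the proteoglycan perlecan (0.89 ± 0.18 and 0.92 ± 0.17), were called in both, and Lama1 in MSK1 KD only (0.61 ± 0.15). All calls in these lists were of genes higher in EE, and none was made in either genotype over the 22 libraries. Averaged over the genotypes, 1 of the 9 receptors was called higher over the 22 libraries, and no gene of the other lists. In that contrast 0.146% of all genes were called. Against these counts stand the 3.55% (WT) and 1.74% (MSK1 KD) of all genes called. Within groups, several followed the choroid plexus score, with called slopes of 0.39 for Pcolce (adjusted p = 2.25e-12), 0.34 for Nid2, 0.29 for Pcolce2, 0.19 for Mmp2 and for Lama5, 0.14 for Hspg2, 0.13 for Mmp15 and 0.11 for Crtap. Pcolce also had a called slope on the meningeal fibroblast score (0.65; adjusted p = 0.00752), whereas Serpinh1, Timp3, Itga10, Mrc2 and Lama1 had none called on either. The part of those cells in these differences was not tested.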

How the data were processed

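Hippocampal poly(A) RNA was prepared as TruSeq v2 libraries and sequenced in paired ends. Per the labels and the study's methods, the authors used Skewer for trimming, STAR 2.5 for alignment to GRCm38 and HTSeq for unstranded counting of uniquely assigned reads. The raw counts deposited for each library are whole reads per gene symbol. A deposited table of DESeq2-normalized counts was not used. Rows outside single genes took 14.0 to 16.1% of a library's reads in the 17 libraries used and up to 18.6% in the 22, and were left out of library sizes.

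Counts were tested with edgeR 4.0.16 (quasi-likelihood, TMM, filterByExpr, 4 group means in a single fit), with Benjamini-Hochberg adjustment over all genes. The study used DESeq2, which is the alternative here (version 1.42.0). SE is the log2 fold change divided by the square root of F. CPM used TMM-scaled library sizes over 22 libraries. The 17 libraries are those the study analysed, and 22 adds the 5 it set aside. Slopes came from a fit of the 22 libraries with both marker scores (mean log2 CPM, prior count 2) and were called at an adjusted p of 0.05. Of 276 pairs of libraries, 0 held identical counts. Members called in both genotypes are given library by library, those called in 1 genotype by group, and the others by type. A few further members near a threshold, and Col4a1, Col4a2, Col15a1, Col6a4 and Col25a1, were named after their values were seen. The members, gene lists and tests were chosen with earlier results of these data known. Gene positions are from GENCODE M21 on GRCm38 and promoter windows from RefSeq. The fits were tested on simulated counts. Alternatives were the 22 libraries, DESeq2, its size factors, no filter, only the groups compared, no lettered libraries, the choroid plexus score as a covariate, and each library left out. Floors of 3 counts cover counting error only, whereas SD and SE include the spread between libraries.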

Additional observations from a re-analysis of the deposited data

Results flagged for a closer look

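In 13 of 144 groups of 4 or 5 libraries, a member's highest or lowest library lay farther from the others than Dixon's test allows, and chance alone marks about 5% of groups. Library 11 of WT SH, which also had the highest choroid plexus score of the SH libraries in use, was high for Col8a1 (3.76 CPM, the others at 0.913 to 1.54), Col8a2 (6.70, the others at 2.61 to 3.29), Col4a3 (1.56, the others at 0.304 to 0.579) and Col4a4 (2.03, the others at 1.05 to 1.29). Library 6 of MSK1 KD SH was high for Col4a1 (75.2 CPM, the others at 54.5 to 58.0), Col4a2 (106, the others at 62.6 to 72.6) and Col27a1 (10.6, the others at 5.84 to 7.08). Library 5 of the same group was high for Col24a1 (4.43 CPM, the others at 1.79 to 2.49) and Lox (0.757, the others at 0.311 to 0.430). Library 14 of WT SH was low for Col6a5 (1.19 CPM, the others at 1.83 to 1.96) and Col9a1 (0.483, the others at 0.865 to 0.981). Library 7 of MSK1 KD EE was low for Col9a2 (4.21 CPM, the others at 5.54 to 5.6) and Loxl3 (4.06, the others at 5.87 to 6.22). The reasons for these single values were not tested.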

How the results depend on the processing

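The counts of members called depended most on the libraries and on the choroid plexus score. With 22 libraries, the counts called in WT, in MSK1 KD and averaged over the genotypes were 0, 0 and 0. With the choroid plexus score as a covariate they were 0, 0 and 0 over the 17 libraries and 0, 0 and 0 over 22 libraries. Scores of SH and EE libraries did not overlap among the 17, so the covariate fit over them cannot separate the score from housing. Without lettered libraries, which left only 7 and 8 in its EE group, MSK1 KD had 3 calls. Leaving out 1 library at a time gave 13 to 21 calls in WT (13 without library 17), 8 to 13 in MSK1 KD, 17 to 23 for the average, and 0 in the genotype comparisons and the interaction. For the slopes, it gave 9 to 16 on the choroid plexus score (9 without 33A and 10 without 35A) and 1 to 2 on the meningeal score (1 without 33A). Over the 17 libraries 4 choroid plexus slopes (Col4a3, Col8a1, Col8a2 and Col9a3) and 0 meningeal slopes were called, and the meningeal score alone gave 5. Shares of all genes called are not given here for these alternatives, so their counts describe only how the calls depend on the settings. With the covariate over 17 libraries, log2 fold changes turned negative for Col4a3 (-0.0429 in WT and -0.38 in MSK1 KD), Loxl4 (-0.41 and -0.25) and Col18a1 (-0.0208 in MSK1 KD). With it over 22 libraries they did so in MSK1 KD for Col1a2 (-0.0282), Col4a3 (-0.10), Col4a4 (-0.00369) and Col9a3 (-0.0559). The causes of these changes were not tested. Of the 20 fold changes of the 10 members called in both genotypes, all kept their call with DESeq2, its size factors or no filter on low counts, and 19 did with only the groups compared (Loxl4 in MSK1 KD did not). Groups share no replicate numbers. No paired analysis was possible because of this. At 0.0553 to 0.231 CPM for 3 counts, the SH levels of Col17a1 and Loxl4 are near or, in some libraries, below the limit of these libraries.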
